A study of Moesziomyces aphidis with 9 samples.

Results

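Of the 6952 genes measured in the fungus Moesziomyces aphidis (also called Pseudozyma aphidis), 247 were nearly silent in cultures with soybean oil and in cultures on glucose. The 247 genes were chosen by their own levels. Each had under 0.5 RPKM, the read count scaled to gene length and library total, in all 6 single-read libraries and a deposited value under 11 in both stranded libraries. The low levels are therefore a description and no finding. The rule used no difference between the media, but it caps how large one can be. The limit on the stranded values removed 0 genes. Of 248 genes under 0.5 RPKM in the 6 libraries, 1 had no stranded value and was left out, PaG_10317.

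All cultures were of strain DSM70725 in a yeast extract medium with 40 g/l glucose, kept at 30 °C and harvested after 114 h. The soybean oil cultures had 70 g/l soybean oil in addition and are labelled as filaments, and the glucose cultures without oil are labelled as blastospores, so medium and growth form cannot be told apart. Each medium had 3 libraries of 50 bp single reads and 1 stranded library numbered as replicate 1, and soybean oil replicate 2 had a further paired-end library of 95 bp reads. No label says that the replicates came from separate cultures, so the spread and the p-values cover the spread between these libraries.

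Moesziomyces aphidis is a yeast-like relative of the corn smut Ustilago maydis and secretes mannosylerythritol lipids, glycolipids that act as surfactants and whose production plant oil is known to favour. In smut fungi, many genes are used in mating, inside the host plant or in spores and stay off in axenic culture, and in Ustilago maydis a share of the genes for secreted effectors lies side by side in clusters. A gene with no transcripts can also be a gene model that is never transcribed. The gene files give numbers without names, products, positions or sequences, so no role can be given to any of the 247 genes, and identifier neighbours are neighbours in numbering.

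Library totals were 10190455, 11100455 and 8108888 reads in the 3 soybean oil libraries and 9957811, 9064758 and 9015790 reads in the 3 glucose libraries. The paired-end library had 31573726, and the sources used here do not say whether these are reads or pairs. The stranded libraries gave no totals, and the steps between their low values correspond to about 11100000 reads with oil and 23800000 reads on glucose.

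The 247 genes held 194, 216 and 149 reads in the soybean oil libraries and 276, 263 and 200 reads in the glucose libraries. Scaled to RPM, here reads per 1000000 reads in genes, these were 19.4, 19.9 and 18.7 RPM with oil, against 28.5, 29.8 and 22.8 RPM on glucose. Each of the 3 glucose libraries lay above the 3 single-read oil libraries, and glucose replicate 3 was the lowest of its group. The paired-end library of oil replicate 2 did not follow this order, with 34.1 RPM, above the 3 glucose libraries. The means were 19.3 ± 0.576 RPM with oil and 27.0 ± 3.70 RPM on glucose (SD, n = 3 each). No test was made of this sum, because the genes were chosen by their low reads. The median of the other genes was 29.1, 32.0 and 30.6 RPKM with oil and 33.8, 33.5 and 29.7 RPKM on glucose. Glucose replicate 3 was thus the lowest of its group there too. The part of such shifts between libraries in the gap of the 247 genes was not tested. In RNA from whole cultures, fewer cells with a transcript and less transcript per cell cannot be told apart.

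**Figure D1:**
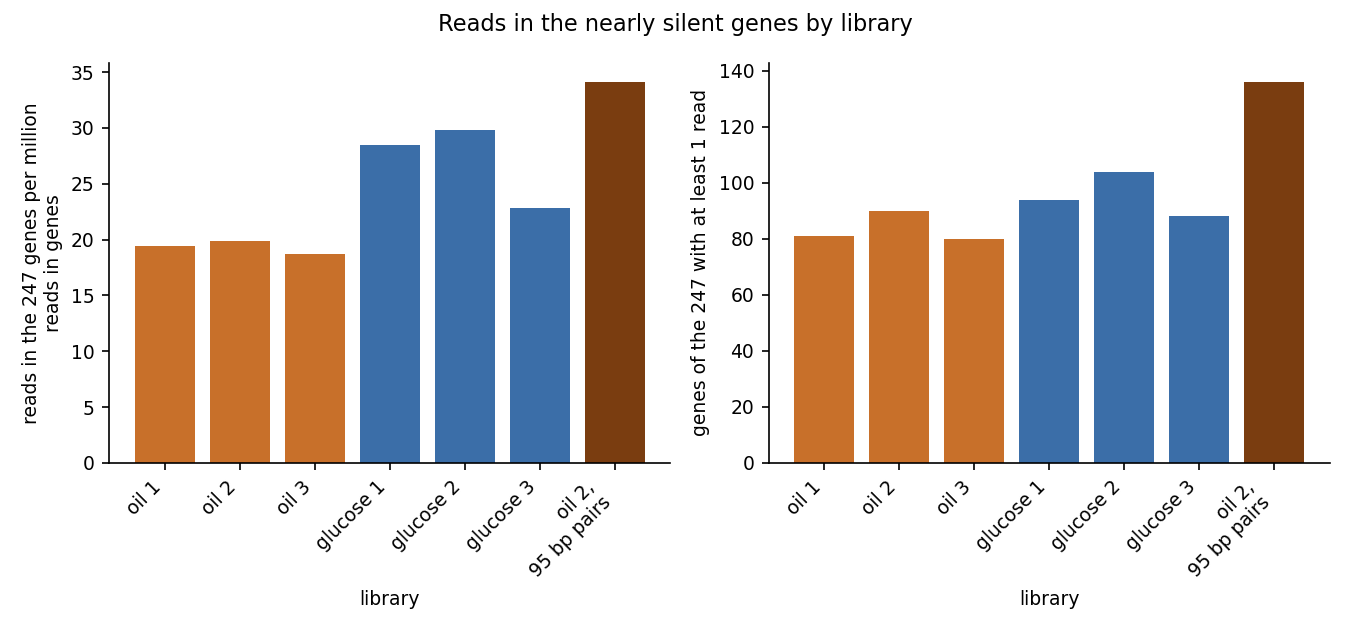
Reads in the 247 nearly silent genes as RPM, scaled to the reads in genes (left), and the number of the 247 genes with at least 1 read (right), in soybean oil libraries 1 to 3, glucose libraries 1 to 3 and the paired-end library of soybean oil replicate 2. Each bar is 1 library: the oil bars on the left panel lie between 18.7 and 19.9, the glucose bars between 22.8 and 29.8, and the paired-end bar at 34.1.

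Most of the genes had few reads, and the number with any read differed from library to library. Of the 247 genes, 81, 90 and 80 had at least 1 read in the soybean oil libraries, against 94, 104 and 88 in the glucose libraries. Over the 6 libraries, 67 genes had no read, 53 had reads in 1 library, 33 in 2, 31 in 3, 16 in 4, 21 in 5 and 26 in all 6. The summed reads ranged from 0 to 57 with a median of 2, and 89 genes had 1 to 3 reads. The 26 genes with reads in all 6 libraries carried 50.3% of the 1298 reads. The mean over the 6 libraries had a median of 0.0481 RPKM over the 247 genes (quartiles 0 and 0.103, highest 0.370). For a gene of 1000 bp, 3 reads over all reads of the 6 libraries are worth 0.0522 RPKM, which is the upper limit that a count of 0 allows at this depth. Such limits cover counting error only.

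The highest mean, 0.370 RPKM, belonged to PaG_01527, with 38 reads. The most reads, 57, belonged to PaG_03452, which at 4427 bp was also the longest of the 195 genes whose length could be worked out. The rule itself depends on length, since 1 read is worth 0.5 RPKM in a gene of 180 bp in the deepest library and of 247 bp in the shallowest. The 195 genes had a median length of 1021 bp (quartiles 528 and 1679), against 1674 bp (quartiles 1047 and 2576) for 6704 other genes. Genes of at least 3000 bp made up 3.08% of the 195 nearly silent genes and 18.0% of the others, and genes under 300 bp made up 6.67% and 1.49%. Other weakly expressed genes were short too. The 640 other genes with a mean under 5 RPKM had a median of 1216 bp, with 7.5% under 300 bp and 9.38% of at least 3000 bp. The other 52 nearly silent genes had no read in the 7 libraries whose reads could be worked out, and so no length. The 26 genes with reads in all 6 libraries had a median of 1955.5 bp, against 567 bp for the 89 genes with 1 to 3 reads. A longer gene collects more reads at the same RPKM, so these lengths are not independent of the counts.

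The limit cut through a continuous range of levels. Just inside it, the highest of the 6 values was 0.499 RPKM in PaG_03198, 0.499 in PaG_03760 and 0.497 in PaG_01998. Just outside, it was 0.512 RPKM in PaG_04555, 0.513 in PaG_02572 and 0.531 in PaG_01422. PaG_03760 had 5, 7 and 3 reads with oil and 8, 7 and 3 reads on glucose. PaG_03198 reached the same value with 2 reads in 1 library, and had 0, 2 and 1 reads with oil against 0, 0 and 1 on glucose. These 2 genes near the limit therefore rest on very different numbers of reads.

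Of the 247 genes, 45 were at 0 in all 9 libraries. A further 7 were at 0 in the 7 unstranded libraries and had a value in a stranded one, and 15 had no read in the 6 single-read libraries but at least 1 in the paired-end library. Within the 6 single-read libraries, reads were found in both media for 110 genes, with oil only for 33 and on glucose only for 37. In these 6 libraries, 2 genes had reads in every oil library and in no glucose library, PaG_03579 and PaG_04722, and 3 genes had reads in every glucose library and in no oil library, PaG_00134, PaG_01512 and PaG_05617. The other libraries went against this in 2 of the 5: PaG_04722 had 3 reads in the stranded glucose library and 0 in the stranded oil library, and PaG_05617 had 85 reads in the paired-end oil library and 3 in the stranded oil library. These counts were not worked out for other genes. Oil values lay wholly above glucose values in 2.22% of the 180 nearly silent genes with a read, against 26% of all genes with a read. Glucose values lay wholly above oil values in 6.11%, against 31.6%.

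All 247 genes lay in the main series of identifiers, below 10000, where they made up 4.11% of 6011 genes. None was among the 941 genes numbered above 10000, to which the gene left out for want of a stranded value belongs. Low levels in general were rare there: 2 genes above 10000 averaged under 1 RPKM over the 6 libraries, against 464 genes below 10000. In windows of 500 identifiers of the main series, the share of nearly silent genes ran between 2.22% and 6.67%, so they were spread over the whole series. The highest share came from the last, short window of 120 genes.

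**Figure D2:**
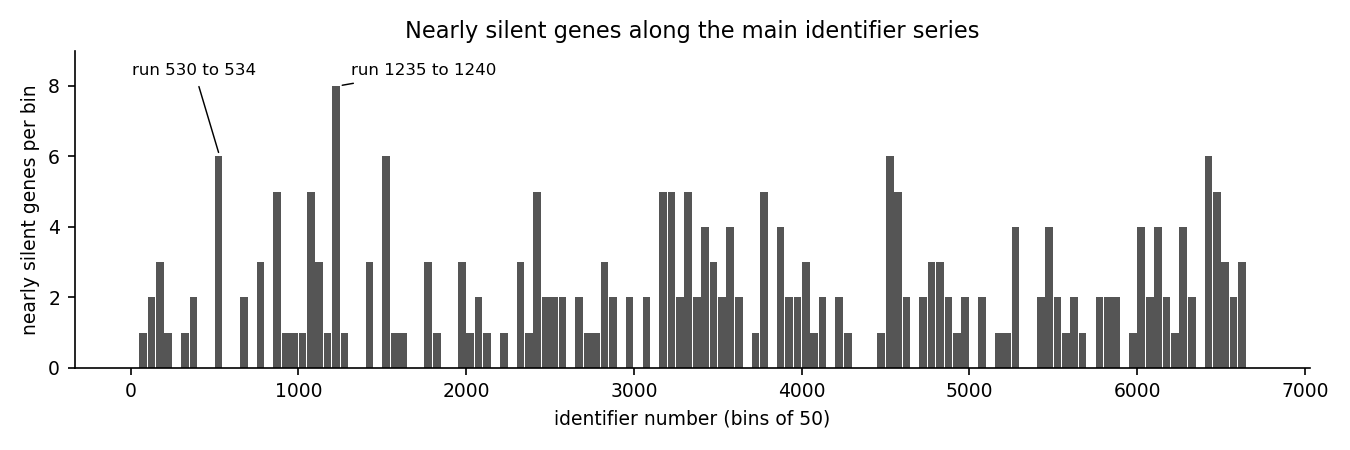
Number of nearly silent genes (y axis) in bins of 50 identifier numbers along the main series (x axis), with the 2 longest runs of consecutive members marked. Members occur along the whole series, and the highest bar, with 8 genes, holds the run PaG_01235 to PaG_01240.

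Nearly silent genes often stood next to each other in the numbering. An identifier differing by 1 from that of another member was carried by 88 of the 247 genes (35.6%), against 340 of the 5764 other genes of the main series that stood next to a member (5.90%). Within a difference of 2 the shares were 44.5% and 11.4%, within 5 they were 54.7% and 25.3%, and within 10 they were 68.0% and 42.6%. The gap between members and other genes was thus widest, as a ratio, at the shortest distance. Each wider window contains the narrower ones and both shares rise with width, so this order does not show that the grouping is local. The 247 genes formed 159 single genes, 28 pairs, 7 runs of 3, 1 run of 5 and 1 run of 6, and the 9 runs of 3 or more held 32 genes. The 45 genes at 0 in all 9 libraries stood next to a member in 23 cases (51.1%), against 65 of the other 202 (32.2%). No chance test was made of these counts, since the genes were chosen with their levels known.

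The longest run was PaG_01235 to PaG_01240. Its last 5 genes, PaG_01236 to PaG_01240, were at 0 in all 9 libraries, the longest such stretch. The other stretches of genes at 0 in all 9 libraries were PaG_06018 to PaG_06020, PaG_01410 to PaG_01411 and PaG_03786 to PaG_03787. PaG_01235 had 0, 1 and 2 reads with oil and 1, 1 and 1 reads on glucose, and 24 reads in the stranded glucose library. The pair PaG_01232 and PaG_01233 stood just before, with 1 and 2 reads with oil and none on glucose, so that 8 members fell within the 20 identifiers from 1232 to 1251. That was the densest such window of the main series.

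The genes beside this run were not silent as a group. PaG_01234, between the pair and the run, had 37.0, 50.8 and 29.8 RPKM with oil, against 19.9, 17.8 and 25.7 RPKM on glucose. The 3 oil values lay above the 3 glucose values, and the gene passed as higher with oil (log2 fold change 0.84 with an SE of 0.22, limma adjusted p = 0.0147). The call was lost without glucose replicate 2 (limma adjusted p = 0.0528) and with the paired-end library in place of its partner (limma adjusted p = 0.0772). PaG_01241, the gene after the run, had 0 reads in the 3 oil libraries and 5, 2 and 2 reads on glucose, which were 0.842, 0.370 and 0.372 RPKM. Its glucose level was 3.15-fold that of 3 reads over the 3 oil libraries, with the counting error of the glucose reads left out. The limma adjusted p was 0.0135 (0.0524 with the paired-end library in the fit). It was also at 0 in the stranded and paired-end oil libraries and at 0.42 RPKM in the stranded glucose library. PaG_01241 missed the limit for nearly silent genes through 1 glucose library.

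The second run, PaG_00530 to PaG_00534, had 7 reads with oil and 3 on glucose over its 5 genes. Its flanks differed from each other. PaG_00529, before the run, had 25.6 ± 5.36 RPKM with oil and 35.4 ± 6.46 RPKM on glucose (SD, n = 3 each), which did not pass the test (log2 fold change −0.45 with an SE of 0.19, limma adjusted p = 0.0796). PaG_00535, after the run, had 1.05, 1.34 and 0.612 RPKM with oil and 2.49, 3.10 and 2.84 RPKM on glucose, and was lower with oil in these libraries (log2 fold change −0.94 with an SE of 0.17, limma adjusted p = 0.00323). The paired-end oil library had 4.63 RPKM of PaG_00535, above the 3 glucose values. The call was lost with that library in the fit (limma adjusted p = 0.498) and after quantile normalization (log2 fold change −0.47, limma adjusted p = 0.0821).

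**Figure D3:**
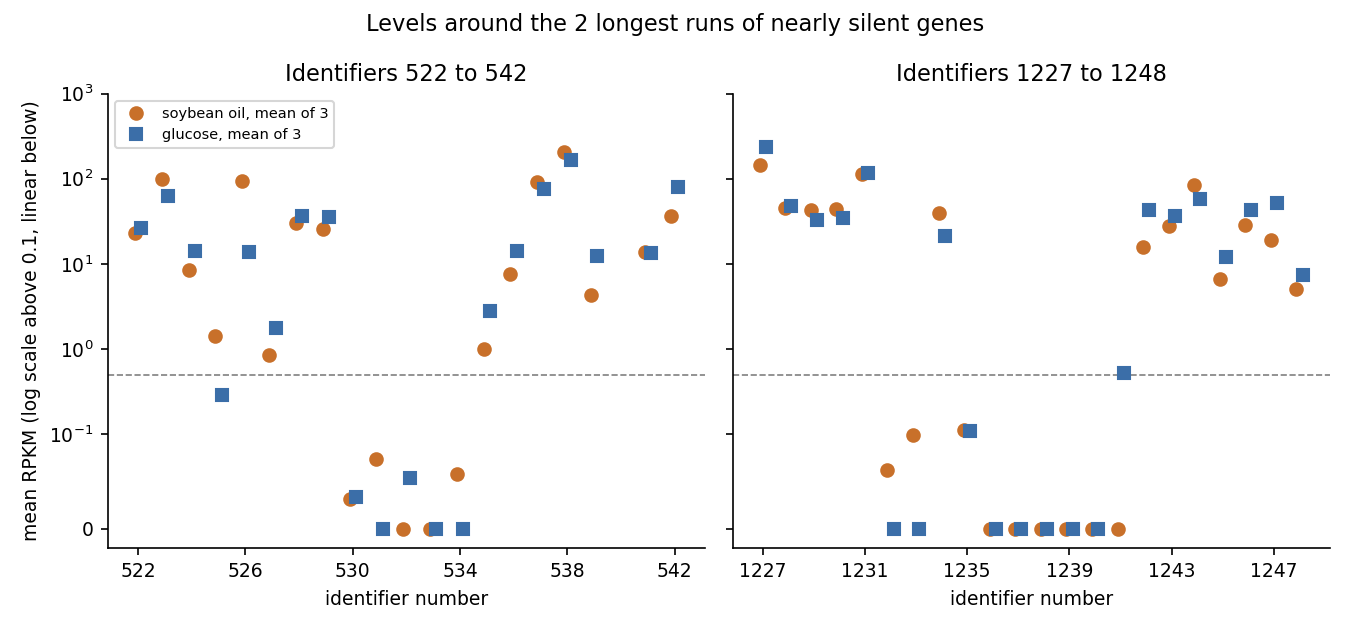
Mean RPKM of 3 soybean oil libraries (circles) and of 3 glucose libraries (squares) for each gene (x axis, identifier number) around the 2 longest runs, on an axis that is logarithmic above 0.1 and linear below, with the 0.5 RPKM limit dashed. Levels drop to or near 0 within both runs, while PaG_01234, at 39.2 RPKM with oil and 21.1 RPKM on glucose, stands between silent genes.

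The third of the longest runs by the naming rule, PaG_01510 to PaG_01512, had 12 reads with oil and 6 on glucose. PaG_01510 had 7, 2 and 2 reads with oil against 0, 2 and 1 on glucose, and PaG_01512 had 0, 0 and 0 reads with oil against 1, 1 and 1 on glucose. The genes before and after this run, PaG_01509 and PaG_01513, were expressed at 15.4 and 28.9 RPKM with oil and at 20.4 and 22.2 RPKM on glucose. PaG_01513 passed the test as higher with oil (log2 fold change 0.36 with an SE of 0.12, limma adjusted p = 0.0347) and PaG_01509 did not (−0.38 with an SE of 0.14, limma adjusted p = 0.0562).

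The 340 non-member genes next to a nearly silent gene had a median level of 25.3 RPKM over the 6 libraries, against 32.8 RPKM for all 5764 other genes of the main series. At an identifier difference of 2 the median was 29.5 RPKM, at 3 it was 34.0 RPKM, at 5 it was 30.4 RPKM, at 10 it was 31.9 RPKM and at 20 it was 33.5 RPKM. The median was lowest directly beside the silent genes, and from a difference of 2 on it moved on both sides of that of all other genes with no steady order. A mean under 5 RPKM was found in 19.7% of the 340 genes and in 10.1% of the 5764.

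The genes next to nearly silent ones were also compared between the media. In the limma fits, 2-fold here and below is 2-fold in RPKM + 1, which takes a larger change in RPKM in weakly expressed genes. PaG_00535, with a log2 fold change of −0.94, is therefore not counted. Among the 340 neighbours, 66 (19.4%) were at least 2-fold lower with oil at a limma adjusted p under 0.05, against a background of 12% (692 of 5764 genes). At least 2-fold higher were 22 (6.47%), against 6.38% (368 genes). In either direction and at any size, 186 of the 340 (54.7%) passed the test, against 48.3%. Split by level, 34 of 245 neighbours (13.9%) with a mean of at least 10 RPKM were at least 2-fold lower, against 9.98% of such genes, and 32 of 95 (33.7%) with a mean under 10 RPKM, against 22.4%. In each of these comparisons on the lower side the share was larger beside the silent genes, and the difference in shares was not tested. After quantile normalization 45 of the 340 were at least 2-fold lower and 26 at least 2-fold higher, with no background share worked out.

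A few nearly silent genes stood next to strongly changed genes. Of 59 genes of the main series that changed at least 16-fold, 6 (10.2%) stood next to a member, against 5.90% of all 5764 other genes of the main series. The difference between these shares was not tested. PaG_02088 had 4, 0 and 0 reads with oil and 0, 0 and 1 on glucose, while the gene numbered next had 0.134 ± 0.0720 RPKM with oil and 56.2 ± 1.54 RPKM on glucose (SD, n = 3 each). PaG_05061 had 1 read in each medium, and the next gene had 109 ± 13.3 RPKM with oil and 1.54 ± 1.01 RPKM on glucose (SD, n = 3 each). In these 2 pairs the reads of the silent gene in the 6 single-read libraries did not follow the medium in which its neighbour was high. In the other libraries PaG_02088 had 2 reads with stranded glucose and 0 with stranded oil, and PaG_05061 had 2 paired-end reads with oil and 0 stranded reads.

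PaG_02885 had 1, 0 and 1 reads with oil and none on glucose, beside a gene with 121 ± 14.6 RPKM with oil and 2.01 ± 0.627 RPKM on glucose (SD, n = 3 each). PaG_03579 had 2, 4 and 3 reads with oil and 0, 0 and 0 on glucose, beside a gene with 153 ± 36.1 RPKM with oil and 3.17 ± 0.575 RPKM on glucose (SD, n = 3 each). In the pairs of PaG_02885 and PaG_03579 the few reads of the silent gene in the 6 single-read libraries came from the medium in which its neighbour was high. PaG_02885 had 0 reads in the paired-end oil library and in both stranded libraries. PaG_03579 had 1 read in the paired-end oil library, 1 in the stranded oil library and 0 in the stranded glucose library. Without positions, reads that run over from a neighbouring transcript cannot be told apart from transcripts of the gene itself, and this was not tested. The log2 fold changes of the 4 neighbours were −5.66, 5.49, 5.35 and 5.19. These are 4 of the 6 pairs. Another is at the end of the run PaG_06520 to PaG_06522, which had 4 reads with oil and 4 on glucose over its genes. The gene after that run, PaG_06523, had 113 ± 34.1 RPKM with oil and 2.98 ± 0.817 RPKM on glucose (SD, n = 3 each).

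Between the media, few of the nearly silent genes passed a test. Of the 247 genes, 180 had a read in at least 1 of the 6 libraries and entered the limma fit on log2(RPKM + 1), and 67 did not. Of these 180, 3 passed at an adjusted p under 0.05 (1.67%), against 46.7% of all 6884 genes in the fit. Higher with oil was 1 of 180 (0.556%), against 20.2% of all genes, and lower were 2 (1.11%), against 26.6%. With quantile normalization the calls were 2 higher and 0 lower with oil among these genes, and 1713 higher and 1585 lower among all genes. With median-ratio scaling they were 1 higher and 1 lower among these genes, and 1610 higher and 1803 lower among all genes. By limma, 1 gene passed without oil replicate 1, oil replicate 2 or glucose replicate 3, and 0 passed without oil replicate 3, glucose replicate 1 or glucose replicate 2, where 0, 0 and 2 had an unadjusted p under 0.05. Among all genes, these fits called 2452 to 3656. The median log2 fold change was −0.02 over the 180 genes and −0.06 over all genes in the fit, with 73 of the 180 above 0 and 107 below. The added 1 RPKM compresses these values, which ran between −0.36 and 0.38. Of the 180 genes, 89 had only 1 to 3 reads over the 6 libraries. Most differences were not detectable at this depth, and a gene that did not pass is not shown to be equal in both media.

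PaG_06465 was the only nearly silent gene that passed as higher with oil by limma. It had 5, 4 and 4 reads with oil and 1, 2 and 0 on glucose, which gave 0.480, 0.352 and 0.482 RPKM with oil and 0.0982, 0.216 and 0 RPKM on glucose. The 3 oil values lay above the 3 glucose values. On the log2 scale the difference was 0.38 (SE 0.13), at an adjusted p of 0.0420 by limma. The paired-end library of oil replicate 2 held 1 read of this gene at 0.0310 RPKM, under each of the 3 oil libraries. The call was lost when any 1 of the 6 libraries was left out and when the paired-end library replaced its partner (limma adjusted p = 0.3997), and was kept after quantile normalization and median-ratio scaling.

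PaG_04756 and PaG_03452 passed as lower with oil. PaG_04756 had 0, 4 and 1 reads with oil and 7, 6 and 6 reads on glucose, or 0.0959 ± 0.109 RPKM and 0.402 ± 0.0135 RPKM (SD, n = 3 each). Its log2 difference was −0.36 (SE 0.13) at an adjusted p of 0.0471 by limma, and it did not pass without glucose replicate 1, 2 or 3 or without oil replicate 1 or 3. It also did not pass after quantile normalization (log2 difference −0.23, limma adjusted p = 0.183) or with the paired-end library in place of its partner (limma adjusted p = 0.0746). PaG_03452 had 5, 3 and 3 reads with oil and 17, 18 and 11 reads on glucose, or 0.0852 ± 0.0249 RPKM and 0.370 ± 0.0875 RPKM (SD, n = 3 each). In both genes every glucose value lay above every oil value.

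PaG_03452 had a log2 difference of −0.33 (SE 0.12) at an adjusted p of 0.0494 by limma, and did not pass when any library other than glucose replicate 3 was left out. By limma it also did not pass after quantile normalization (log2 difference −0.19, adjusted p = 0.225), after median-ratio scaling (adjusted p = 0.0526) or with the paired-end library in place of its partner (adjusted p = 0.363). Its stranded values were 0.10 RPKM with oil and 0.35 RPKM on glucose, with the same direction as the single-read libraries. Its paired-end value with oil was 0.372 RPKM, at the level of the glucose libraries and above the 3 oil libraries. In PaG_04756 the stranded values were 0.05 RPKM with oil and 0.27 RPKM on glucose, and the paired-end value with oil was 0.151 RPKM, within the range of the oil libraries.

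PaG_03579, described above beside its changed neighbour, came next on the higher side. Its values were 0.149, 0.274 and 0.282 RPKM with oil and 0 in the 3 glucose libraries. The oil level was 2.86-fold that of 3 reads over the 3 glucose libraries, with the counting error of the oil reads left out. The paired-end oil library held 1 read of PaG_03579 at 0.0241 RPKM, under each of the 3 oil values, and with it in the fit the limma adjusted p was 0.320. In the 6 libraries it did not pass by limma (log2 difference 0.30, SE 0.12, adjusted p = 0.0638) and passed by edgeR on the reads (adjusted p = 0.0202). By edgeR's quasi-likelihood test, 5 of the 180 genes passed (2.78%), 1 higher and 4 lower with oil, against 50.3% of all genes. Only PaG_03452 passed by both tests (edgeR adjusted p = 0.00337). The 3 oil values lay wholly above the glucose values in 4 of the 180 genes (2.22%), against 26% of all genes in the fit, and the glucose values wholly above the oil values in 11 (6.11%), against 31.6%.

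**Figure D4:**
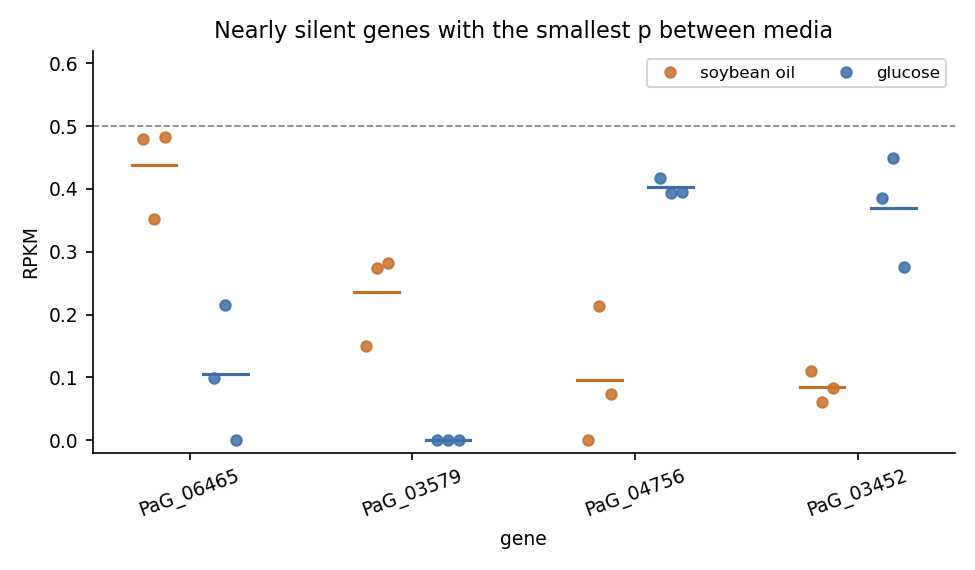
RPKM in 3 soybean oil libraries (left points) and 3 glucose libraries (right points) for the 2 higher and 2 lower nearly silent genes with the smallest p, with short lines at the means and the 0.5 RPKM limit dashed. PaG_03579 is at 0 in the 3 glucose libraries, and the media do not overlap in any of the 4 genes.

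The paired-end library came from soybean oil replicate 2 and was not used to choose the genes, although the single-read library of the same replicate was. It held 1052 reads in the 247 genes, against 216 in the single-read library of the same replicate. The ratio was 4.87, while the library totals differed by 2.84-fold. The rule capped the single-read values and not the paired-end values, so the choice of genes by itself can raise this ratio. Scaled to the reads in genes, the paired-end library had 34.1 RPM in these genes and the single-read library 19.9 RPM. At least 1 paired-end read was found in 136 of the 247 genes, and 52 genes had no read in any of the 7 unstranded libraries.

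Of the 247 genes, 10 reached 0.5 RPKM in the paired-end library and 4 reached 1 RPKM. The highest value, 1.27 RPKM in PaG_05764, rests on 1 read and on a length of 25 bp that the values do not settle. PaG_01297 had 1.24 RPKM from 40 paired-end reads, against 0.352 RPKM from 4 reads in the single-read library of the same replicate. PaG_05490 had 1.18 RPKM from 57 paired-end reads, against 0.235 RPKM from 4 single reads. Any paired-end value of 0.5 RPKM or more lies above all 6 single-read libraries by the rule.

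PaG_06332 had 1.12 RPKM from 72 paired-end reads, against 0.0885 RPKM from 2 single reads. PaG_00674 had 0.990 RPKM from 78 paired-end reads, against 0.108 RPKM from 3 single reads. PaG_03328 had 0.910 RPKM from 16 paired-end reads, against 0.162 RPKM from 1 single read. The widest gap was in PaG_05617, with 85 paired-end reads (0.834 RPKM) against 0 reads in each of the 3 single-read oil libraries and 4, 3 and 3 reads on glucose.

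Part of the surplus of paired-end reads lay in few genes. The 6 genes with the most paired-end reads held 392 of the 1052 reads (37.3%) and 19 reads in the single-read library. Without them, the paired-end library had 20.9 RPM of its library total in the remaining genes, against 17.7 RPM for the single-read library. The 6 genes were picked by their paired-end reads, so leaving them out narrows this gap however the surplus is spread. Other weakly expressed genes had such a surplus too. The ratio of reads, each relative to its library total, was 1.71 for the 247 genes, 2.07 for other genes under 1 RPKM, 1.93 for genes of 1 to 10 RPKM and 1.22 for genes of 10 to 100 RPKM. Read length, pairing and library depth differ together between these 2 libraries, and the rule capped the single-read values of the 247 genes. The other genes were grouped by their mean over the 6 single-read libraries, which include that of oil replicate 2. Their ratios are therefore not free of a choice by single-read values either. The part of read length, pairing, depth and choice of genes in the surplus was not tested.

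**Figure D5:**
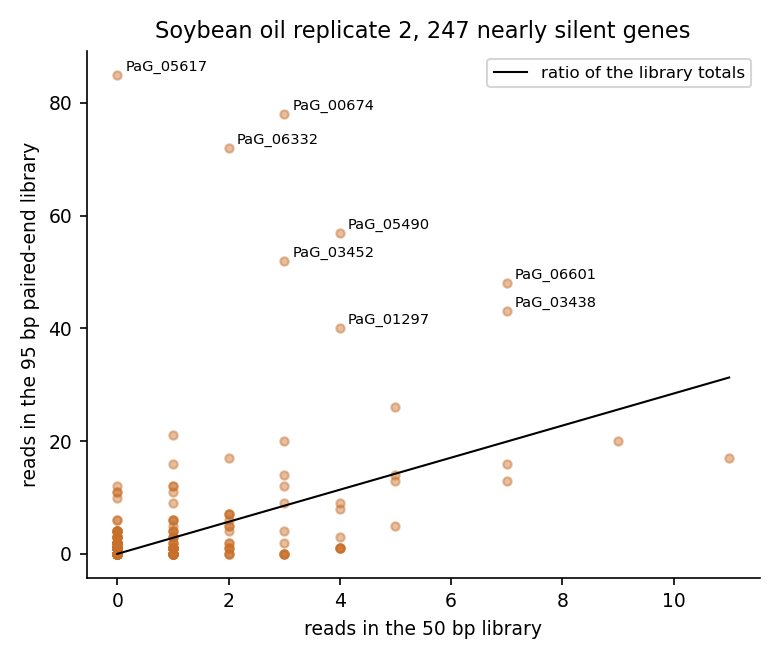
Reads of each of the 247 nearly silent genes in the single-read library (x axis) and in the paired-end library (y axis) of soybean oil replicate 2, with a line at the ratio of the library totals, 2.84. Most genes lie near the origin, and PaG_05617, PaG_00674, PaG_06332 and PaG_05490 stand far above the line with 85, 78, 72 and 57 paired-end reads.

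The stranded libraries carry an added 1, which was taken off before the values below. Of the 247 genes, 67 had a value above 0 in the stranded oil library and 128 in the stranded glucose library, which is about 2.14 times as deep. All but 7 of the 247 were under 0.5 RPKM in both. Reads could be worked out in both libraries for 231 genes, which held 10.7 RPM of the library total with oil and 20.3 RPM on glucose. The same 231 genes had 16.1, 17.4 and 16.03 RPM in the single-read oil libraries and 22.3, 24.4 and 18.4 RPM on glucose. Oil was below glucose in the stranded pair, with 1 library per medium and no replicate check. The paired-end oil library, which the rule did not cap, went the other way, with 27.3 RPM in the same 231 genes, above the 3 single-read glucose libraries.

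The highest stranded value with oil was 3.59 RPKM in PaG_04011, which was at 0 in the 8 other libraries. PaG_02231 followed with 0.96 RPKM, worth 1 read at a length of 94 bp, and PaG_00532 with 0.39 RPKM, worth 3 reads. On glucose the highest was 1.61 RPKM in PaG_03424, from 19 reads, against 1 read in the single-read library of the same replicate. PaG_01235 had 1.02 RPKM from 24 reads, against 1 single read, and PaG_05055 had 0.68 RPKM from 35 reads, against 4 single reads. Of these 6 genes, only PaG_05055 had reads in all 6 single-read libraries.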

How the data were processed

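Total RNA of 9 libraries was sequenced on a HiSeq2000, per the labels. The deposited gene values are RPKM, made by the authors from reads aligned with TopHat 1.4.1, per the submitters' processing notes. The deposited junction lists, with counts of reads over splice junctions, entered no result. The sources used here name no counting tool, strand setting, annotation or build, so reads of overlapping genes cannot be told apart. RPKM values of the 7 unstranded libraries are ratios of whole numbers, and reads, lengths and totals were worked out from them: 100% of 6952 genes came out whole (tolerance 1e-06). A length is the smallest that fits, multiplied in 3 members to fit the stranded values, and is least settled for the 44 members with reads in 1 library. After the added 1 was taken off, 99.4% (oil) and 99.2% (glucose) of low stranded values fell on whole reads within rounding at the depths given.

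All genes with at least 1 read in the 6 single-read libraries entered a two-sided limma 3.58.1 fit (R 4.3.3) of log2(RPKM + 1) with a trended prior variance, soybean oil minus glucose, with Benjamini-Hochberg adjustment over all 6884 genes. edgeR 4.0.16 (quasi-likelihood, TMM) on the reads was an alternative and called 3460 genes. Stranded and paired-end libraries carry numbers of replicates already present and entered no group.

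The members, lists and tests were chosen with earlier results of these data known. Named are the 6 members highest in the paired-end library, the 3 highest in each stranded library, the 3 genes on each side of the limit, the 2 higher and 2 lower with the smallest p, the ends and flanks of the 3 longest runs, up to 4 members next to a gene changed 16-fold, and the longest and shortest. PaG_01232, PaG_01233, PaG_01527, PaG_04722, PaG_00134, PaG_05617, PaG_10317, the stretches at 0 and the other genes of the paired-end plot were named after their values were seen. So were PaG_06520, PaG_06522 and PaG_06523.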

Additional observations from a re-analysis of the deposited data

Results flagged for a closer look

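In the paired-end library of soybean oil replicate 2, 8 nearly silent genes with at least 5 reads lay at 0.5 RPKM or more. By the rule, such values lie above the single-read libraries. Such rises were more frequent in other weakly expressed genes. At least 1 RPKM and 4 times the single-read value of this replicate was reached by 3 of the 247 genes (1.21%). The shares were 11.4% of 219 other genes averaging under 1 RPKM and 15.6% of 865 at 1 to 10 RPKM. PaG_01297 had 1.24 RPKM, PaG_05490 had 1.18 RPKM and PaG_06332 had 1.12 RPKM. PaG_00674 had 0.990 RPKM, PaG_03328 had 0.910 RPKM and PaG_05617 had 0.834 RPKM. PaG_03438 had 0.685 RPKM from 43 reads, against 7 single reads, and PaG_06601 had 0.563 RPKM from 48 reads, against 7 single reads. Control libraries of the same kind on glucose were not analysed here, so these values say nothing of a difference between media.

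In the stranded libraries, 3 nearly silent genes reached 1 RPKM. PaG_04011 had 3.59 RPKM in the stranded oil library and 0 in the 8 other libraries, and its reads could not be worked out. PaG_03424 had 1.61 RPKM and PaG_01235 had 1.02 RPKM in the stranded glucose library, against 0.202 and 0.102 RPKM in the single-read library of glucose replicate 1.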

How the results depend on the processing

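The number of nearly silent genes called between media, 3 by limma, was 5 with a pseudocount of 0.1, 8 with genes at 0 in all 6 libraries kept in the fit and 5 by edgeR, all 3 original calls being among the first 2 sets and 1 among the last. Among all genes the same fits called, in this order, 3220 of 6884, 3105 of 6952 and 3460 of 6884. With the paired-end library in place of its single-read partner, limma called 0 (1 at an unadjusted p under 0.05), 799 genes in all, and 28 neighbours at least 2-fold lower and 13 at least 2-fold higher with oil. Leaving out 1 library gave 0 to 1 calls, against 2452 to 3656 among all genes, and no such fit kept more than 1 of the 3. A filter at a mean of 1 RPKM leaves no nearly silent gene to test. Same-numbered libraries did not deviate together (correlations −0.19, 0.23 and 0.05). With the replicate block 0 nearly silent genes were called (3 at an unadjusted p under 0.05), against 2920 among all genes. The fold change of PaG_05617 turned to 0.14 with the paired-end library, against −0.15 in the 6 libraries, because that library holds 85 reads of it. Otherwise the cause was not tested.

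A limit of 0.25 RPKM chose 160 genes, of which 47 stood next to another, and within an identifier difference of 5 it was 135 of the 247. In the paired-end library 27 genes reached 0.25 RPKM, 4 reached 1 RPKM and 45 had 5 or more reads. Leaving out 1 library, neighbours at least 2-fold lower with oil numbered 55 to 71. They numbered 45 of 340 after quantile normalization, 61 after median-ratio scaling and 75 by edgeR, which takes the fold from the reads without the added 1 RPKM. The background share was worked out for the main fit only, so the difference from it is not shown for the other fits. Depth limits all values: the median gene had 2 reads over the 6 libraries.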
